A study of Saccharomyces cerevisiae with 24 samples.

Results

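SUC2, MAL11, MAL32, MAL33, GAL1, GAL7 and GAL10 are 7 genes of sucrose, maltose and galactose use in budding yeast, out of 5449 genes tested. They were found by the gene symbol of their probe sets, each had 1 probe set, and all 7 were measured. The probe set of MAL32 also stands for the near-identical MAL12, so the 2 maltase genes were not measured apart. The samples were 24 Affymetrix arrays of total RNA from Saccharomyces cerevisiae grown in chemostats (continuous cultures held at steady state) on minimal medium. The study asked how the level of inositol and choline, both precursors of membrane lipids, and deletion of SNF1 act on transcripts when nitrogen (N) or carbon (C) limits growth. There were 8 groups of 3 arrays: the snf1 mutant and the reference strain, each under N or C limitation, each at a high or a low level of inositol and choline. The sources used here do not give the strain background, the carbon source or the amounts that count as high and low.

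SNF1 encodes the kinase subunit of yeast AMPK, an energy-sensing enzyme complex that is active when glucose is scarce. As background, glucose shuts off genes for other sugars through repressors such as Mig1, which binds their promoters together with the corepressor Cyc8-Tup1, and Snf1 phosphorylates Mig1 and lifts this repression. SUC2 encodes invertase, the secreted enzyme that splits sucrose, and its regulation led to the naming of the SNF (sucrose non-fermenting) genes. MAL11 encodes an alpha-glucoside permease that takes up maltose, MAL32 encodes maltase, which splits it, and MAL33 encodes a transcription activator of the MAL type. GAL1 encodes galactokinase, GAL7 galactose-1-phosphate uridylyltransferase and GAL10 the epimerase of the Leloir pathway, and galactose is needed to induce all 3.

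All values are log2 expression values as deposited; no source states the base, and folds assume base 2. SNF1 lay between 4.95 and 5.02 on the 12 snf1 arrays, against 7.09 to 8.47 on the 12 reference arrays. On 6 snf1 arrays the title says N and the description says C. DAL5, a gene repressed by good nitrogen sources, lay at 10.85 to 11.72 on these 6. It ranged between 11.31 and 11.97 across the reference arrays under N limitation, and between 6.83 and 7.13 across all 12 arrays under C limitation, so the 6 were kept as N-limited. Probe sets on the array that match no S. cerevisiae gene gave a background level of 5.60. RNA quality, taken as the mean 3' minus 5' signal of 8 control genes, differed with the inositol-choline level: it was 0.83 to 2.66 on the 12 high arrays, against 0.63 to 0.84 on the 12 low arrays. Replicate 1 of the N-limited high groups stood apart in both strains, at 2.63 for snf1 and 2.66 for the reference. Called differences of SUC2, the MAL genes and GAL1 that rest on those arrays are given with and without them. Nothing in the labels says that the 3 arrays of a group came from separate cultures, so p-values reflect only how far the sampled arrays differ, and that spread may be technical.

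The 7 genes differed in how widely they varied. SUC2, MAL11 and MAL32 varied widely: their group means spanned 2.21, 2.67 and 2.89 log2 units, against a median span of 0.54 over all tested genes. All 3 were highest in the C-limited reference, and MAL11 and MAL32 were lowest in the N-limited snf1 mutant. For SUC2 the lowest mean was 7.17, in the N-limited snf1 mutant at the low level. The other 3 N-limited groups overlapped each other, at means of 7.34 to 7.42. Of these, the high-level groups of both strains also overlapped the lowest group. MAL33 spanned 0.97. The 3 galactose genes stayed near the background level, with spans of 0.29 for GAL1, 0.31 for GAL7 and 0.13 for GAL10.

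**Figure D1:**
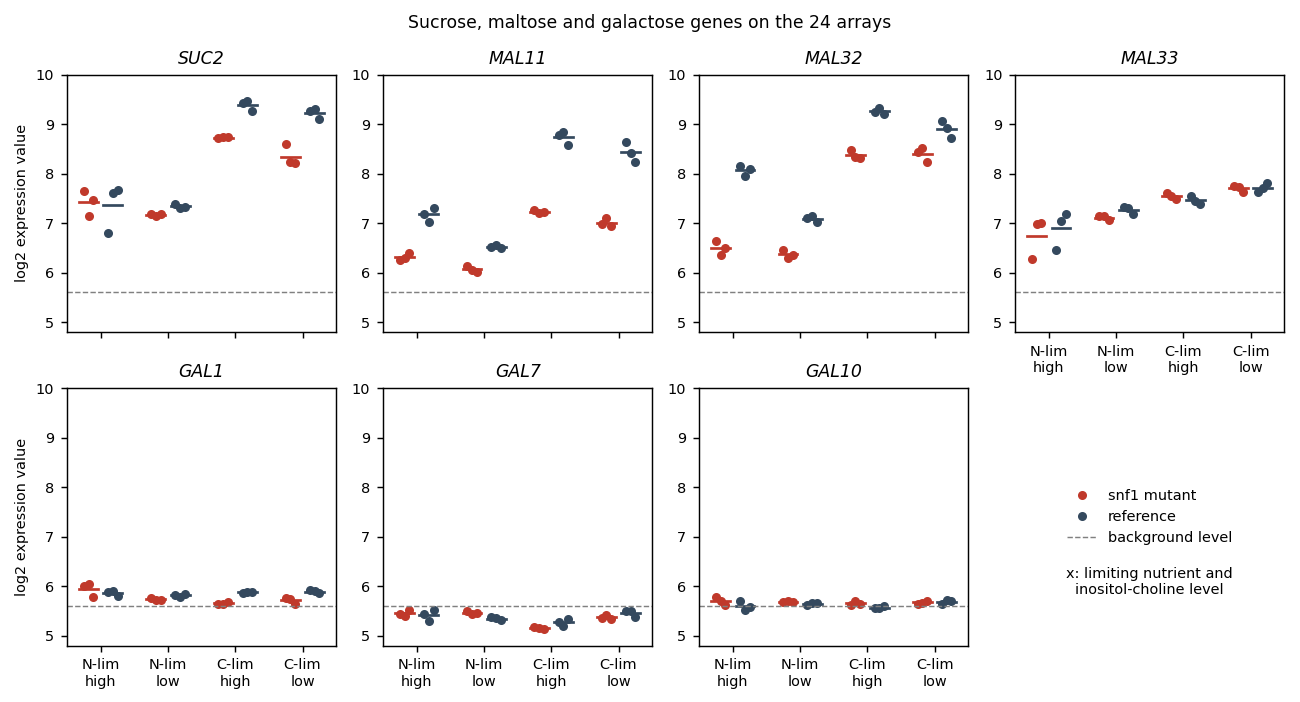
Deposited log2 expression value (y) of the 7 genes on each of the 24 arrays (points), by limiting nutrient and inositol-choline level (x), with the snf1 mutant in red left of the reference in dark blue; short bars are means of 3 arrays and the dashed line is the background level of 5.60. SUC2, MAL11 and MAL32 are highest on the C-limited reference arrays, and GAL7 is below the line on all 24.

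Under C limitation the snf1 mutant had less transcript of the sucrose and maltose enzymes and of the maltose permease than the reference. Differences were tested with limma across all genes and called where the p adjusted by Benjamini-Hochberg was under 0.05. SUC2, MAL11, MAL32 and GAL1 were called lower and none was called higher at both levels, which is 4 of 7, against 32.8% of all tested genes called in either direction at the high level and 34.4% at the low level.

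SUC2 lay at 8.72, 8.73 and 8.74 on the snf1 arrays, against 9.43, 9.46 and 9.26 on the reference arrays at the high level. The low-level values were 8.59, 8.24 and 8.20 on the snf1 arrays, against 9.27, 9.30 and 9.09 on the reference arrays. At both levels every snf1 array was below every reference array. The difference was -0.65 ± 0.17 (SE) at the high level, a 1.57-fold lower value, with an adjusted p of 0.00417. At the low level it was -0.88 ± 0.17, or 1.83-fold lower, with an adjusted p of 0.000314.

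MAL11 had the largest strain difference of the 7 under C limitation. It lay at 7.26, 7.20 and 7.23 on the snf1 arrays, against 8.78, 8.84 and 8.58 on the reference arrays at the high level. With low inositol-choline the snf1 arrays gave 6.98, 7.10 and 6.94, against 8.64, 8.42 and 8.23 on the reference arrays. The groups lay more than 1 log2 unit apart at each level, with no overlap. The permease transcript was 2.84-fold lower at the high level (-1.51 ± 0.09, adjusted p 6.22e-11) and 2.68-fold lower at the low level (-1.42 ± 0.09, adjusted p 1.40e-10).

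MAL32, the maltase, lay at 8.47, 8.34 and 8.31 on the snf1 arrays, against 9.25, 9.32 and 9.20 on the reference arrays at the high level. Its values at the low level were 8.43, 8.53 and 8.23 on the snf1 arrays, against 9.06, 8.93 and 8.71 on the reference arrays. The groups did not overlap at either level. The difference was -0.89 ± 0.09 (1.85-fold lower, adjusted p 2.15e-07) at the high level and -0.50 ± 0.09 (1.42-fold lower, adjusted p 0.000211) at the low level. Whether these strain differences depend on the level was tested as an interaction, and none of the 7 was called under C limitation, against 4.15% of all genes, with 1 of the 7 at an unadjusted p under 0.05. With the 3' minus 5' signal as a covariate the interaction of MAL32 was called, at -0.40 with an adjusted p of 0.0281.

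Under N limitation only the transcripts of the maltose permease and maltase were called between the strains. These 2 of 7 were called lower in the snf1 mutant at both levels, against 4.15% of all genes called at the high level and 9.73% at the low level.

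MAL32 lay at 6.64, 6.36 and 6.49 on the snf1 arrays, against 8.14, 7.96 and 8.10 on the reference arrays at the high level. Low-level values were 6.45, 6.30 and 6.35 on the snf1 arrays, against 7.11, 7.14 and 7.01 on the reference arrays. No snf1 array reached the lowest reference array at either level. The maltase transcript was 2.96-fold lower at the high level (-1.57 ± 0.09, adjusted p 1.74e-09), and 1.65-fold lower at the low level (-0.72 ± 0.09, adjusted p 1.57e-05). The high-level difference was -1.60 without the replicate 1 pair.

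MAL11 lay at 6.25, 6.29 and 6.40 on the snf1 arrays, against 7.19, 7.03 and 7.30 on the reference arrays at the high level. On the low-level arrays it gave 6.14, 6.06 and 6.002 on the snf1 arrays, against 6.51, 6.56 and 6.50 on the reference arrays. Here too the groups did not overlap, at values closer to the background than under C limitation. The difference was -0.86 ± 0.09 at the high level (1.81-fold lower, adjusted p 4.52e-06) and -0.46 ± 0.09 at the low level (1.37-fold lower, adjusted p 0.00181). In a fit on the 6 arrays of the N-limited high groups alone it was no longer called at that level, with an adjusted p of 0.117, but it was called when those 6 arrays were also blocked by replicate number (adjusted p 0.00213). It was -0.82 without the replicate 1 pair.

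SUC2 was not called between the strains under N limitation. At the high level it lay at 7.65, 7.15 and 7.47 on the snf1 arrays, against 6.80, 7.60 and 7.67 on the reference arrays, and the groups overlapped. The lowest of these values, in the reference, and the second highest, in the snf1 mutant, came from the replicate 1 arrays with the lowest 5' signal. The difference was 0.06 ± 0.17 with an adjusted p of 0.995, and it was -0.33 with an adjusted p of 0.0537 without that pair. At the low level SUC2 lay at 7.19, 7.14 and 7.17 on the snf1 arrays, against 7.39, 7.31 and 7.32 on the reference arrays, a difference of -0.17 ± 0.17 with an adjusted p of 0.70. These groups did not overlap, and the same difference was called in a fit on their 6 arrays alone (adjusted p 0.00207). A fit that also blocks by replicate number called it too (adjusted p 0.000484). In that blocked fit 5 of the 7 genes were called, against 2781 of all 5449 genes.

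**Figure D2:**
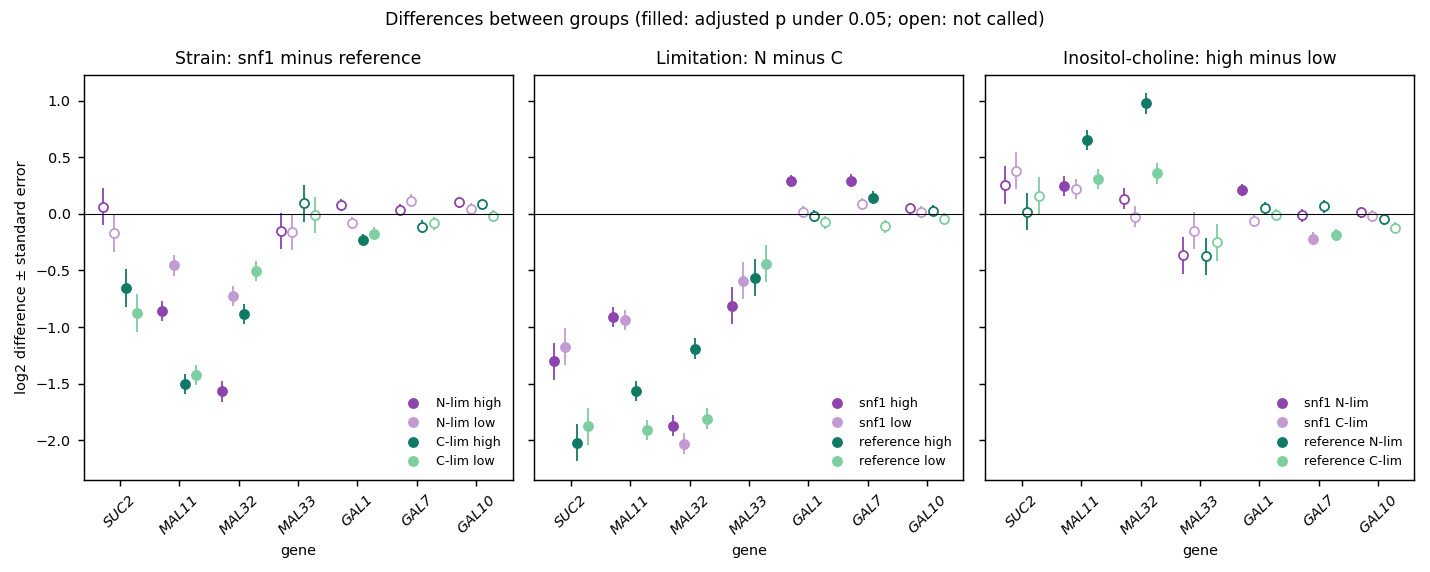
Log2 difference (y, points, with standard error bars) of the 7 genes (x) for snf1 minus reference, N minus C limitation and high minus low inositol-choline, each within the groups named in the legends; filled points passed an adjusted p of 0.05. SUC2, MAL11, MAL32 and MAL33 lie below 0 in every N minus C difference, and MAL11 and MAL32 lie below 0 in every strain difference.

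The sucrose and maltose genes were lower under N than under C limitation in both strains. SUC2, MAL11, MAL32 and MAL33 were called lower in all 4 comparisons, and for these 4 genes no N-limited array reached the lowest C-limited array of its strain and level. The share of all genes without overlap was not counted. GAL7, below background on all 24 arrays, also did not overlap in the snf1 mutant at either level or in the reference at the low level. Nor did GAL1, near background, in the snf1 mutant at the high level. In the reference at the low level GAL1 did not overlap either, at a difference of only -0.08. In the snf1 mutant 6 of 7 genes were called at the high level, with GAL1 and GAL7 higher, against 48.6% of all genes in either direction, and 4 of 7 at the low level, against 30.6%. In the reference 5 of 7 were called at the high level, with GAL7 higher, against 52.3%, and 4 of 7 at the low level, against 44.3%.

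From the values above, SUC2 differed in the snf1 mutant by -1.30 ± 0.17 log2 units at the high level and -1.17 ± 0.17 at the low level. In the reference it differed by -2.02 ± 0.17 at the high level, which is 4.06-fold lower, and by -1.88 ± 0.17 or 3.68-fold lower at the low level. The largest of the adjusted p-values of these 4 differences was 1.36e-05. Without the replicate 1 pair the differences at the high level were -1.42 in the snf1 mutant and -1.74 in the reference.

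MAL11 differed by -0.91 ± 0.09 at the high and -0.94 ± 0.09 at the low level in the snf1 mutant, and by -1.56 ± 0.09 and -1.91 ± 0.09 in the reference. MAL32 had the opposite order of sizes at the high level, with -1.87 ± 0.09 in the snf1 mutant and -1.19 ± 0.09 in the reference. At the low level MAL32 differed by -2.03 ± 0.09 in the snf1 mutant, which is 4.09-fold, and by -1.81 ± 0.09 in the reference. All of these passed the test. Without the replicate 1 pair the differences at the high level were -0.88 for MAL11 and -1.94 for MAL32 in the snf1 mutant, and -1.57 and -1.23 in the reference, all called.

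MAL33, the activator, moved less. At the high level it lay at 6.26, 6.98 and 6.99 on the N-limited and at 7.62, 7.56 and 7.49 on the C-limited snf1 arrays, and at 6.45, 7.04 and 7.19 on the N-limited and 7.55, 7.45 and 7.39 on the C-limited reference arrays. At the low level it was 7.11 ± 0.05 under N and 7.70 ± 0.07 under C limitation in the snf1 mutant, and 7.27 ± 0.08 under N and 7.71 ± 0.09 under C limitation in the reference (SD, n = 3 each). The lowest value of each N-limited high group was that of the replicate 1 array with the lowest 5' signal.

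The N minus C difference of MAL33 was -0.81 ± 0.16 in snf1 and -0.57 ± 0.16 in the reference at the high level, and -0.59 ± 0.16 and -0.44 ± 0.16 in the same strains at the low level. Without the replicate 1 pair the differences at the high level were -0.57 and -0.34, both called. For the reference the call was lost when its replicate 1 array alone was left out (-0.34, adjusted p 0.0518) and on only the arrays compared (adjusted p 0.0683, or 0.0931 when also blocked by replicate number). With the 3' minus 5' signal as a covariate the difference in the reference at the high level was -0.15, with an adjusted p of 0.0726. In the reference at the low level the adjusted p was 0.0337, and it was over 0.05 when any of 5 single arrays was left out, with a highest value of 0.106. MAL33 was not called in any of the 4 strain comparisons, where its differences ranged from -0.16 to 0.09. With the covariate its strain difference under C limitation at the high level was 0.22 and called (adjusted p 0.00488). Under N limitation at the low level the groups did not overlap. The -0.16 there was called without the replicate 1 pair (adjusted p 0.0446) and with array weights per group (0.0096). It was also called on only the arrays compared (adjusted p 0.0148, or 0.00092 when also blocked by replicate number).

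**Figure D3:**
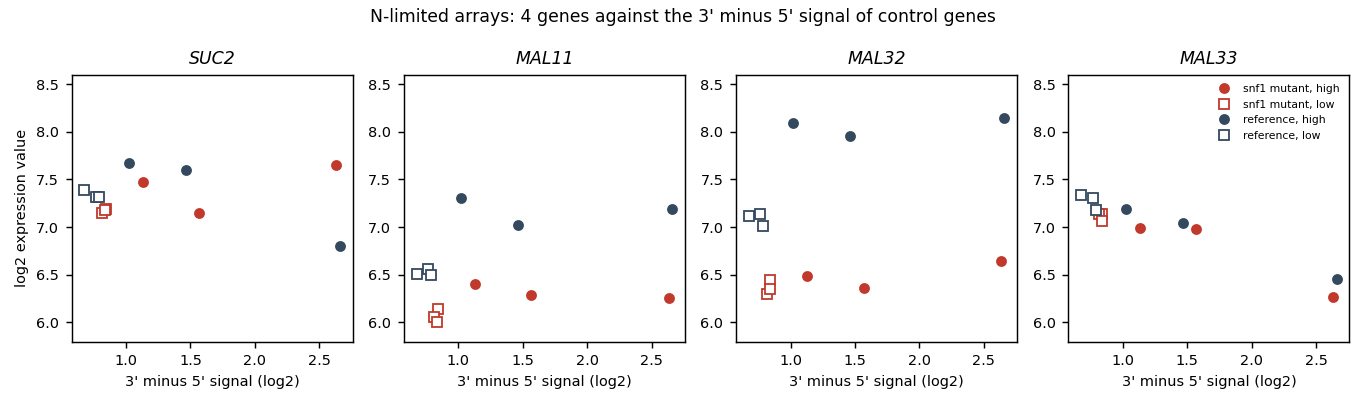
Log2 expression value (y) of SUC2, MAL11, MAL32 and MAL33 on the 12 N-limited arrays against the mean 3' minus 5' signal of 8 control genes (x, log2 units), with the snf1 mutant in red, the reference in dark blue, high inositol-choline as filled circles and low as open squares. The 2 arrays at 2.63 and 2.66 have the lowest MAL33 values, and MAL11 and MAL32 are lower in snf1 than in the reference at each level.

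In the fit on all arrays the size of the strain difference depended on the limiting nutrient for 4 of the 7 genes. The calls for SUC2 were the least stable of these. The interaction is the snf1 minus reference difference under N limitation minus that under C limitation, so a positive value means that the snf1 minus reference difference was less negative under N limitation, or above 0 there, as for SUC2 (0.06) and GAL1 (0.08) at the high level. At the high level 4 of 7 genes were called, 3 of them positive, against 20.6% of all genes. Of the 7, 2 were called at the low level, both positive, against 19.5%.

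MAL11 had interactions of 0.65 ± 0.13 at the high level (adjusted p 0.000742) and 0.97 ± 0.13 at the low level (adjusted p 9.21e-06). MAL32 went the other way at the high level, with -0.68 ± 0.13 (adjusted p 0.000578), and was -0.22 ± 0.13 at the low level, which was not called. The measured strain difference of the permease transcript was thus smaller under N than under C limitation, and that of the maltase transcript was larger at the high level. In the N-limited snf1 mutant MAL11 averaged 6.31 at the high and 6.07 at the low level, and MAL32 6.50 and 6.37, against a background level of 5.60. Whether values this low compress the differences was not tested. Without the replicate 1 pair the values at the high level were 0.69 for MAL11 and -0.71 for MAL32, both called.

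SUC2 had interactions of 0.72 ± 0.23 at the high level (adjusted p 0.0338) and 0.70 ± 0.23 at the low level (adjusted p 0.0394). Both lay close to the threshold: the first was 0.33 with an adjusted p of 0.0661 without the replicate 1 pair, and the second had an adjusted p of 0.0523 when all arrays were blocked by replicate number. Each lost its call in 12 of 36 alternatives, with a highest adjusted p of 0.198 at the high and 0.101 at the low level.

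Between the inositol-choline levels the transcripts of the maltose permease and maltase differed most, and in the N-limited reference. In that setting 2 of 7 genes were called, both higher at the high level, against 31.5% of all genes. MAL32 was 0.98 ± 0.09 log2 units higher at the high than at the low level, or 1.97-fold (adjusted p 4.98e-07), and MAL11 0.65 ± 0.09 higher, or 1.57-fold (adjusted p 4.33e-05). Neither gene's high arrays overlapped its low arrays, and without the replicate 1 pair the differences were 0.94 and 0.64. When these 6 arrays were fitted alone and blocked by replicate number neither was called, at adjusted p-values of 0.0592 for MAL32 and 0.152 for MAL11.

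In the N-limited snf1 mutant MAL32 averaged 6.50 ± 0.14 at the high and 6.37 ± 0.08 at the low level (SD, n = 3 each), and the difference of 0.13 ± 0.09 was not called. MAL11 was called, at 0.25 ± 0.09 with an adjusted p of 0.0356, and so was GAL1, at 0.21 ± 0.05, which makes 2 of 7 against 37.2% of all genes. Both were called without the replicate 1 pair, at 0.28 and 0.18. On these 6 arrays alone MAL11 had an adjusted p of 0.0701 and GAL1 of 0.146. The interaction of strain and level under N limitation was called for 1 of 7 genes, against 2.07% of all genes. That gene was MAL32, at -0.84 ± 0.13 with an adjusted p of 0.000699, and it was -0.88 without the replicate 1 pair. For MAL11 it was -0.40 ± 0.13 with an adjusted p of 0.12.

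SUC2 and MAL33 were not called between the levels under N limitation. SUC2 differed by 0.25 ± 0.17 in the snf1 mutant and by 0.02 ± 0.17 in the reference. Without the replicate 1 pair the reference difference was 0.30 and called (adjusted p 0.0171), and with the covariate the snf1 difference was 0.47 and called (adjusted p 0.0309). MAL33 differed by -0.37 ± 0.16 in the snf1 mutant and -0.38 ± 0.16 in the reference, and by 0.09 in each with the covariate.

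Between the levels in the C-limited reference 3 of 7 genes were called, against 14.8% of all genes: MAL32 was 0.36 ± 0.09 higher at the high level (adjusted p 0.0135), MAL11 was 0.30 ± 0.09 higher (adjusted p 0.027) and GAL7, below background, was lower. MAL11 ranges overlapped between the levels, and leaving out replicate 3 of the low group gave adjusted p-values of 0.0772 for MAL32 and 0.147 for MAL11. In the C-limited snf1 mutant GAL7 alone was called, 1 of 7 against 23.4% of all genes. SUC2 there was 0.38 ± 0.17 higher at the high level with an adjusted p of 0.104. Without the replicate 1 arrays of the N-limited groups, which belong to other groups but enter the shared estimate of spread, SUC2 was called at the same difference, with an adjusted p of 0.00101. The 3' minus 5' signal was higher at the high level in both strains and limitations, so its part in the differences between levels was not tested beyond the covariate and the pair left out.

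The galactose genes were at or near background in all 8 groups, in media whose labels name no galactose. GAL7 was below the background of its array on all 24 arrays, between 5.14 and 5.51, so no fold is given for it. GAL10 lay between 5.52 and 5.79 and was below background on 3 arrays. It was not called in any of the 16 comparisons.

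GAL1 lay above background on every array, between 5.63 and 6.05. Under C limitation it averaged 5.65 ± 0.03 in the snf1 mutant and 5.88 ± 0.01 in the reference at the high level, and 5.72 ± 0.06 in the snf1 mutant and 5.89 ± 0.03 in the reference at the low level (SD, n = 3 each). The groups did not overlap at either level. The differences were -0.23 ± 0.05 (adjusted p 0.00262) and -0.17 ± 0.05 (adjusted p 0.0172) at the high and the low level, and the second had an adjusted p of 0.0934 when replicate 3 of the snf1 group was left out. In the snf1 mutant at the high level GAL1 was 0.29 ± 0.05 higher under N than under C limitation, and its interaction of strain and limitation at that level was 0.31 ± 0.08 (adjusted p 0.00618). Both were called without the replicate 1 pair, at 0.26 and 0.29. On only the arrays compared the interaction had an adjusted p of 0.0909, or 0.0951 when also blocked by replicate number, and with array weights 0.184. The N minus C difference had an adjusted p of 0.106 when blocked on the arrays compared. Values this close to background may be compressed, which was not tested.

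The wider pathways were described from lists of named genes. Of the maltose and isomaltose list, 9 of 13 genes were measured by name. In the snf1 mutant 4 of 9 were lower and none higher under C limitation at both levels, with a median difference of -0.14 at the high and -0.13 at the low level, against 0.03 and 0.05 over all tested genes. The share of all genes called in these 2 comparisons was 32.8% and 34.4%. Beside MAL11 and MAL32 these included IMA5, which encodes an isomaltase. IMA5 averaged 5.49 in the snf1 mutant and 6.67 in the reference at the high level, and 5.67 in the snf1 mutant and 6.53 in the reference at the low level. At the high level all 3 snf1 arrays were below the background of their array, so IMA5 was at least 2.09-fold lower there, taking their value as that background (adjusted p of the fit 2.09e-11). At the low level the difference was -0.86 ± 0.06 (adjusted p 2.05e-09), with 1 of 3 snf1 arrays below background. Under N limitation IMA5 was not called between the strains at either level, with means of 5.61 to 5.67 in the 4 groups.

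Between the limiting nutrients 4 of the 9 maltose and isomaltose genes were lower and 1 higher under N limitation in the snf1 mutant at the high level, and 6 of 9 were lower and none higher at the low level. In the reference 5 were lower and none higher at the high level, and 6 were lower and none higher at the low level. The median difference over the list lay between -0.48 and -0.22 in these 4 comparisons, against 0.03 to 0.06 over all tested genes. The 5 of 9 called at the high level stand against 48.6% of all genes in snf1 and 52.3% in the reference, and the 6 of 9 at the low level against 30.6% and 44.3%.

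Of the galactose list, 10 of 11 genes were measured, and those that moved most between the strains were not the 3 enzymes of the Leloir pathway. GCY1, which encodes a glycerol dehydrogenase and is a known Gal4 target, and PGM2, the major phosphoglucomutase, were lower in the snf1 mutant under C limitation. GCY1 differed by -1.38 ± 0.07 at the high and -1.13 ± 0.07 at the low level, and PGM2 by -1.53 ± 0.11 and -1.41 ± 0.11. PGM1, the minor phosphoglucomutase, was higher in the mutant by 0.76 at both levels. In all, 3 of 10 genes were lower and 2 higher at the high level and 3 lower and 1 higher at the low level, against 32.8% and 34.4% of all genes. Under N limitation none of the 10 was called between the strains at the high level, with 1 at an unadjusted p under 0.05. GCY1 alone was called at the low level. Of all genes 4.15% were called there at the high and 9.73% at the low level. GAL3, the galactose sensor, was lower under N than under C limitation in all 4 comparisons, by 0.47 to 0.70 log2 units.

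Among 11 regulators of glucose repression, MIG1 was lower in the snf1 mutant in all 4 media. Its differences under N limitation were -0.44 at the high and -0.50 at the low level, and under C limitation -0.46 at the high and -0.45 at the low level. MIG2 and MIG3, which encode repressors related to Mig1, were higher under N than under C limitation in all 4 comparisons. Of the 10 regulators other than SNF1, 4 were higher and none lower in the snf1 mutant at each level. In the reference 4 were higher and none lower at the high level, and 5 higher and 1 lower at the low level. The shares of all genes called were 48.6% and 30.6% in snf1 and 52.3% and 44.3% in the reference, at the high and the low level. Whether MIG2 and MIG3 bear on the sugar genes was not tested. MIG2 differed by 1.67 and 1.69 in the snf1 mutant and by 1.99 and 2.31 in the reference at the high and the low level. MIG3 differed by 1.54 and 1.003 in the snf1 mutant and by 0.92 and 0.85 in the reference. Beside the deleted SNF1, 3 of the other 10 regulators were lower and none higher in the mutant under C limitation at the high level, and 3 were lower and 2 higher at the low level. These are 3 and 5 of 10, against 32.8% and 34.4% of all genes. NRG2, which encodes a repressor of glucose-regulated genes, was 1.60 log2 units lower in the mutant under C limitation at the low level, where SNF4, the activating subunit of the kinase, was 0.31 higher.

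**Figure D4:**
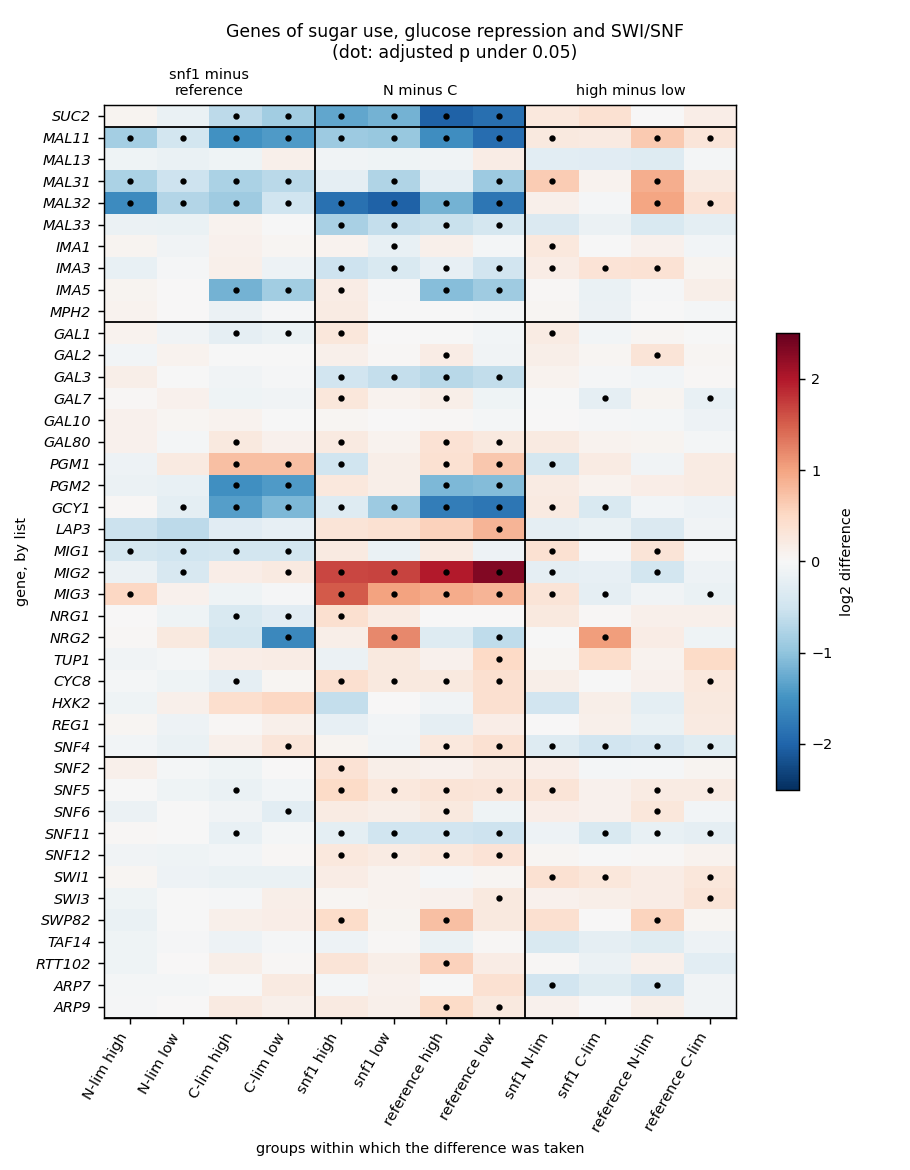
Log2 difference (colour, red higher and blue lower) of SUC2 and the measured genes of the 4 lists other than SNF1 (rows; from top to bottom SUC2, maltose and isomaltose use, galactose use, glucose repression and the SWI/SNF complex) in 12 comparisons (columns), with a dot where the adjusted p was under 0.05. MIG2 and MIG3 are higher in all 4 N minus C columns. SUC2, MAL11, MAL32, MAL33 and GAL3 are lower in these columns, and a link to MIG2 and MIG3 was not tested.

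The genes most like each wide-ranging member were taken from 850 genes whose group means spanned at least 1 log2 unit, by Pearson's r over the 8 group means. These values share arrays and are a description only. For SUC2 they were ATO3, which encodes a transporter of the acetate and ammonium family (r 0.99), CSR2 (0.99) and JEN1, the lactate permease (0.99). For MAL11 they were GUT2, the mitochondrial glycerol-3-phosphate dehydrogenase (0.98), CAT8, an activator of gluconeogenic genes (0.98), and YIG1 (0.97). For MAL32 they were MTH1, a regulator of glucose transporter genes (0.96), KGD1, a subunit of the alpha-ketoglutarate dehydrogenase (0.95), and GSM1 (0.94). Among the members themselves r was 0.92 for MAL11 and MAL32, 0.90 for SUC2 and MAL11 and 0.89 for SUC2 and MAL32. For MAL33, which spanned less, the 3 genes were ARO4 (0.98), TMT1 (0.98) and MBA1 (0.97), of which ARO4 acts in the synthesis of aromatic amino acids. The closest for GAL1 was CUP9, at 0.96, and for GAL7 and GAL10 no gene was above 0.77.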

How the data were processed

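RNA was measured on 24 arrays, and per the submitters' processing notes the authors summarised probe sets with PLIER; the sources used here give no version, background step or normalization. The deposited values were taken as log2 from their range, 4.82 to 13.25, so the planned transformation of linear values was not applied, and the medians of the 24 columns were 5.93 to 6.00. Arrays were grouped by title. Of 10928 probe sets 7244 had 1 gene symbol in the platform annotation, 1 had several and 3683 were not listed. The 5498 that matched S. cerevisiae gave 5449 genes, using the probe set of highest mean for 47 genes with several. The background level is the 95th percentile of the means of 1747 probe sets without a S. cerevisiae gene. The number of arrays limits the precision.

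The 8 group means were fitted together on all arrays with limma 3.58.1 (lmFit and eBayes, R 4.3.3), with 16 residual and 18.77 total degrees of freedom, and gave 12 pairwise differences and 4 interactions with strain. Adjusted p-values are Benjamini-Hochberg values over the 5449 genes of one comparison. The method was checked on simulated data. Named genes were the 7 members, up to 3 genes per list and comparison by smallest adjusted p (the deleted SNF1 not counted), the 3 genes most like each member and the nearest tested neighbours. A list gene below the background of each array (the same percentile on that array) in 1 group only is given as a bound. The members and the 4 lists were chosen with earlier results of these data known. Whether replicate numbers pair arrays was checked from deviations from the group means: 6 of the 28 possible pairings of groups had all 3 correlations across genes above 0.1. These include 3 of the comparisons made here. For snf1 against the reference under N limitation the correlations were 0.901, 0.784 and 0.868 with high inositol-choline, and 0.165, 0.313 and 0.405 with low. For N against C limitation in snf1 with low inositol-choline they were 0.173, 0.461 and 0.392. The alternatives tried are named with the sensitivity of the results. Gene order came from RefSeq's R64 table.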

Additional observations from a re-analysis of the deposited data

Results flagged for a closer look

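In the fit on all arrays the effect of SNF1 deletion differed between the limiting nutrients, by a test of the interaction, for 4 genes. At the high level the interaction was 0.72 for SUC2, 0.65 for MAL11, -0.68 for MAL32 and 0.31 for GAL1. These are 4 of 7 genes, against 20.6% of all genes. At the low level the interaction was 0.70 for SUC2 and 0.97 for MAL11, which is 2 of 7 against 19.5% of all genes. Both SUC2 interactions lost their call in 12 of 36 alternatives. At the high level GAL1, which lay near the background level of 5.60, lost its call in 3 of 36. MAL11 and MAL32 each lost theirs at that level in 1 of 36. Positive values mean that the snf1 minus reference difference was less negative under N limitation, or above 0 there, as for SUC2 (0.06) and GAL1 (0.08) at the high level. The effect of the deletion differed between the inositol-choline levels for MAL32 under N limitation, by -0.84. This is 1 of 7 genes, against 2.07% of all genes, and MAL32 lost that call in 1 of 36 alternatives. MAL32 was 1.57 log2 units lower in the snf1 mutant at the high level and 0.72 lower at the low level. On the arrays behind the high-level values, the 3' minus 5' signal was 1.13 to 2.63 in snf1 and 1.02 to 2.66 in the reference under N limitation, and 1.06 to 1.16 in snf1 and 0.83 to 0.90 in the reference under C limitation.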

How the results depend on the processing

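Of 112 results for single members (7 genes in 16 comparisons), 46 were called, and 26 of these stayed called under every alternative that could be run. The other 20 lost the call somewhere, 25 of the 66 not called gained one, none was reversed, and the sign changed where neither value was called for 24 results. Quantile normalization, trended and robust moderation, and the mean of all probe sets changed no call. Where the count of members called moved by over 1.5 times, the cause was not tested. Brackets give the number of all genes called in the same fit, out of 5449 unless stated, except for fits that leave out 1 array. The main fit is the one on all arrays described above. The strain comparison under N limitation had 6 called at the low and 1 at the high level with array weights per group (2569 and 6). On only the arrays compared it also had 6 and 1 (2503 and 5, against 530 and 226 in the main fit). With the replicate block on only the arrays compared it had 5 at the low level (2781). The replicate block on all arrays kept it at 2 (561). N minus C in the reference at the high level (2850 in the main fit) had 3 on only the arrays compared, with or without the block (1031 and 1598). High minus low in the C-limited snf1 mutant (1274 in the main fit) had 4 with array weights (3394). On the arrays compared it had 4 with or without the block (3253 and 3301). It also had 4 without the pair of arrays of lowest 5' signal (2907) and 3 with the covariate (2809). Without dim genes, which drops GAL7, it had 0 (1240 of 5173). In the N-limited snf1 mutant (2026 in the main fit) it had 1 with all probe sets (2000 of 10928) or median centring (2016). It had 0 with array weights (995) and on the arrays compared with or without the block (10 and 738). In the C-limited reference (807 in the main fit) it had 5 with array weights (2087), the covariate (2508) or without that pair (2623). In the N-limited reference (1714 in the main fit) it had 0 with the block on the arrays compared (14). The interaction of strain and limitation at the low level (1062 in the main fit) had 1 with all probe sets (1032 of 10928). It also had 1 with the replicate block on all arrays (1120). At the high level (1121 in the main fit) it had 0 with array weights (425). It had 2 on the arrays compared with or without the block (664 and 614). The interaction of strain and level under C limitation (226 in the main fit) had 1 with array weights (860) or the covariate (754). It also had 1 with the block on the arrays compared (837) or without that pair (914). Under N limitation (113 in the main fit) it had 0 with array weights (15) and 2 with the covariate (471). Array weights gave MAL32 an adjusted p of 0.629 in that interaction and MAL11 0.659 between the strains under N limitation at the high level. Leaving out 1 array at a time gave 3 to 5 for N minus C in the reference at the high level, with 3 without replicate 1 of the N-limited group, 0 to 3 for high minus low in the C-limited reference, with 0 without replicate 2 of the high group and 1 without replicate 1 of it or without replicate 2 or 3 of the low group, 1 to 2 in the C-limited and 1 to 3 in the N-limited snf1 mutant, 1 to 3 for strain by limitation at the low level and 1 to 2 for strain by level under N limitation. The replicate block on all arrays changed 1 of the 112 single results, and on only the arrays compared it removed 11 calls and added 11, among them GAL7 for N minus C in snf1 at the low level, at an adjusted p of 0.0486. Counts of list genes called moved by over 1.5 times in 394 of 2920 alternatives. Leaving out the 6 arrays whose labels disagree was possible only for comparisons that do not need them. For genes near background, such as the GAL genes, the signal over background limits what can be seen.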

Other observations

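Several genes next to the members on the chromosome were also called, in comparisons where 2.07% to 52.3% of all tested genes were called. Whether lying next to a member matters was not tested. MAL31, the maltose permease gene between MAL33 and MAL32 on chromosome II, was lower in the snf1 mutant in all 4 media, by 0.80 at the high and 0.51 at the low level under N limitation and by 0.79 at the high and 0.67 at the low level under C limitation. It was higher at the high than at the low inositol-choline level under N limitation, by 0.63 in snf1 and 0.91 in the reference, and both were called. How far the probe sets of MAL31 and MAL11, which encode related permeases, respond to each other's transcripts was not tested. PAU24, on the other side of MAL32, was 1.81 log2 units lower in the snf1 mutant at the high and 2.11 lower at the low level under C limitation. It was not called between the strains under N limitation. Its group means there were 5.54 to 5.89, near the background level of 5.60, which limits what can be seen. POT1, which encodes the peroxisomal thiolase and lies near SUC2 on chromosome IX, was 1.81 log2 units lower in the snf1 mutant under C limitation at the high level, and differed by 0.01 at the low level. MAL13, next to MAL11 on chromosome VII and the activator gene of its locus, was not called in any of the 16 comparisons. FUR4 and KAP104, on either side of the GAL cluster, were called in 3 and 6 of the 16 comparisons, against the same shares of all genes.

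All 12 genes of the SWI/SNF chromatin remodelling complex, which is known to act at the SUC2 promoter, were measured. Between the strains none was called under N limitation at either level, with 0 at the high and 1 at the low level at an unadjusted p under 0.05. Of all genes 4.15% were called there at the high and 9.73% at the low level. Under C limitation 2 were lower at the high level (SNF5 by 0.17 and SNF11 by 0.19) and 1 at the low level (SNF6 by 0.27). These are 2 and 1 of 12, below the 32.8% and 34.4% of all genes called. Between the limiting nutrients SNF5 was higher and SNF11 lower under N limitation in all 4 comparisons, with SNF5 at 0.26 to 0.48 and SNF11 at -0.52 to -0.24. In the snf1 mutant 4 of 12 were higher and 1 lower at the high level, and 2 higher and 1 lower at the low level, against 48.6% and 30.6% of all genes. In the reference 6 were higher and 1 lower at the high level, and 4 higher and 1 lower at the low level, against 52.3% and 44.3%.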
